A study of Homo sapiens with 8 samples.

Results

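The lysosome and vacuolar ATPase genes of Jurkat cells were taken from the deposited expression table as every entry whose name begins with ATP6V or ATP6AP, together with 25 named lysosomal genes. Of the 13453 entries in the table, 45 met this rule: 21 V-ATPase entries and 24 of the 25 named genes. CTSZ was not analysed here. One of the 45, the antisense transcript ATP6V0E2-AS1, had a mean below 1 FPKM and was not tested, which left 44. The rule goes by name and uses no measured value, but the genes were proposed with earlier results of these data known.

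Jurkat is an established human T-cell acute lymphoblastic leukemia (T-ALL) line, and the study lowered or removed CBAP, the protein encoded by TMEM102, in it by RNA interference or by CRISPR/Cas9. Each of 4 conditions had 2 RNA-seq libraries. The shRNA set held sh-Ctrl cells, which carry a non-targeting control shRNA, and CBAP knockdown cells, which carry an shRNA against CBAP, both stably selected after lentiviral infection. The CRISPR set held CBAP knockout cells and CBAP-reconstituted cells, and both are derived from CBAP-KO Jurkat cells, so the knockout is shared by its control. The knockout cells express GFP and the reconstituted cells a fusion of CBAP with GFP. Unedited cells were not part of the CRISPR set analysed here, and edited lines that pass through a single cell can differ by clone as well as by CBAP. The labels do not say whether the libraries of a condition came from separate cultures, so p-values measure only the spread between these libraries. Values are FPKM, the number of fragments scaled to exon length and to all fragments mapped, and a change is the difference of mean log2(FPKM + 1) within a set, tested by limma over 11427 genes, with p-values adjusted after Benjamini and Hochberg and calls made at an adjusted p under 0.05.

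Lysosomes degrade proteins, glycans and lipids at a low pH, which the V-ATPase maintains: its cytosolic V1 sector hydrolyses ATP and its membrane V0 sector carries protons. The lysosomal surface is also where mTORC1 is switched on by amino acids through the Rag GTPases. Active mTORC1 phosphorylates TFEB and TFE3 and holds them in the cytosol, and when it is off these factors enter the nucleus and bind E-box words of the CLEAR type in the promoters of many lysosomal genes. Because CBAP loss was studied for its effect on mTORC1, the question asked of these genes is whether they moved together in either set.

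The stretches below are shown because they hold the core word of the CLEAR element, TCACGTGA, in the promoters of members. In the RefSeq promoter table (GRCh38.p14), 31 of the 45 members had a promoter, and the 250 bases before the start held TCACGTGA in 6 of them (19.4%). It was found in 203 of the 8817 tested genes with a promoter (2.30%), in 283 of all 27305 genes (1.04%) and in 300 of 35116 promoters of the same length (0.854%). The word reads the same on both strands and contains the E-box CACGTG, which 12 of the 31 members held (38.7%, against 11.8% of tested genes and 7.73% of all genes). A match of letters describes the promoter and is not evidence of binding. CLEAR words are known from the promoters of lysosomal genes, and the members were chosen as such genes. Their larger share is therefore not a finding of these data. Capitals mark TCACGTGA.
MCOLN1, chr19:7522566-7522605, plus strand: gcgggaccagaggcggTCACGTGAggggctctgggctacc
MCOLN1, chr19:7522593-7522623, plus strand: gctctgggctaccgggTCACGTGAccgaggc
LAMP1, chr13:113297194-113297233, plus strand: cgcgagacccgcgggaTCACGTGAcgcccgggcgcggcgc
ATP6V0D1, chr16:67481194-67481233, minus strand: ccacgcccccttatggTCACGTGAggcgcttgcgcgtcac
ATP6V1G1, chr9:114587694-114587733, plus strand: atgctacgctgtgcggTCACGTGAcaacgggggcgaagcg
CTSA, chr20:45891293-45891332, plus strand: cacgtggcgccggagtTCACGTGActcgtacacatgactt
GAA, chr17:80101488-80101527, plus strand: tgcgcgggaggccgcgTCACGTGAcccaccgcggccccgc
GAA, chr17:80101533-80101572, plus strand: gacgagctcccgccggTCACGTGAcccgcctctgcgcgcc
The words lay between 77 and 8 bases before the annotated start, and MCOLN1 and GAA each held a pair of them. TFEB had a promoter in the table without either word.

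TMEM102 had 4.07 and 4.74 FPKM in sh-Ctrl and 2.69 and 2.89 in knockdown cells, and was listed at 0 in all 4 CRISPR libraries, so the targeted gene gives no check of the labels there. Of 8 T-lymphoblast markers, 7 were at 1 FPKM or more in every library, while PTCRA ranged from 0 to 28. The others varied too, with CD2 from 10.3 to 83.7, CD7 from 38.1 to 204 and CD3E from 364 to 1022 FPKM. CD3G lay between 55.8 and 111, LCK between 218 and 303, TAL1 between 57.7 and 80.7 and CD3D between 446 and 553. The summed level of the 8 markers was 1351 to 1363 FPKM in reconstituted and 1686 to 2139 in knockout cells, and 1424 to 1441 in sh-Ctrl and 1511 to 1637 in knockdown cells. Of 4 B-cell markers only CD79A was in the table, at 14.5 to 22.5 FPKM in sh-Ctrl, 13.0 to 15.9 in knockdown, 0.732 to 1.09 in reconstituted and 9.60 to 9.91 in knockout cells, and 0 of 5 myeloid and 0 of 3 erythroid markers were in the table. The summed FPKM ranged from 362082 to 434742 over the libraries and was highest in both reconstituted libraries. The part of these differences in the results below was not tested, and in bulk RNA a change in every cell cannot be told apart from a change in a share of the cells.

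As a group the lysosomal and V-ATPase genes were changed about as often as other genes. In the shRNA set 3 of 44 members rose (6.82%, against 3.62% of all tested genes) and 4 fell (9.09%, against 8.7%). In the CRISPR set 12 rose in knockout cells (27.3%, against 23.9%) and 11 fell (25.0%, against 25.9%). The median change of the members was -0.02 in the shRNA set, where that of all tested genes was -0.06, and -0.04 in the CRISPR set, where that of all genes was 0.0. The median size of a change, without its sign, was 0.16 in the shRNA set (0.17 over all genes) and 0.30 in the CRISPR set (0.35 over all genes). The split moved with the scaling: quantile normalization gave 7 higher and 4 lower in knockdown and 15 higher and 9 lower in knockout cells, and scaling to the same median gave 10 higher and 15 lower in knockout cells. Over all tested genes the counts moved as well, from 414 higher and 994 lower in knockdown cells to 845 and 830 under quantile normalization. In knockout cells they went from 2734 and 2963 to 2935 and 2861 under quantile normalization and to 2565 and 3608 under median scaling. The sign of the members' median moved too: in the shRNA set it was 0.0354 under median scaling and 0.0514 under quantile normalization, and in the CRISPR set 0.0550 under quantile normalization.

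The knockdown calls rest on a spread shared with the CRISPR libraries, whose replicates were closer together over the members. The median difference between the libraries of a condition over the members was 0.142 and 0.122 on the log2 scale in sh-Ctrl and knockdown cells, and 0.0355 and 0.0567 in reconstituted and knockout cells. Over all tested genes the replicates correlated at 0.953 in sh-Ctrl, 0.923 in knockdown, 0.992 in reconstituted and 0.928 in knockout cells. With the shRNA set fitted alone, limma called 58 of all 11427 tested genes higher and 17 lower, against 414 and 994 in the main fit. Of the members it called 0 in either direction, with 5 higher and 7 lower at an unadjusted p under 0.05. The same counts, 0 called with 5 higher and 7 lower unadjusted, were found when either reconstituted library was left out of the fit.

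Both TFE factors rose in knockout cells and neither passed the test in knockdown cells. TFEB (chromosome 6, 41651716 to 41703997, minus strand, GRCh37), an activator of many lysosomal genes, had 6.0 and 6.79 FPKM in knockout cells. It had 2.87 and 2.13 in reconstituted cells, 2.54 and 2.32 in sh-Ctrl and 2.19 and 2.60 in knockdown cells. The 2 knockout libraries thus stood above the other 6, which lay between 2.13 and 2.87. The rise over reconstituted cells was 2.56-fold, or 1.08 on the log2(FPKM + 1) scale (standard error 0.135, adjusted p = 0.00171 from limma), whereas the change in the shRNA set was -0.02 (adjusted p = 0.959). The 2 changes differed by -1.10 (knockdown minus knockout, standard error 0.190, adjusted p = 0.00935).

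TFE3, the close relative of TFEB that binds the same words, was the more abundant of the pair in FPKM, which is scaled to length. It had 13.8 and 14.4 FPKM in knockout and 11.1 and 11.3 in reconstituted cells, against 8.91 and 9.98 in sh-Ctrl and 8.78 and 8.15 in knockdown cells. The groups did not overlap in either set. The rise in the CRISPR set was 1.26-fold (change 0.31, standard error 0.0755, limma adjusted p = 0.0187) and the change in the shRNA set was -0.14 (adjusted p = 0.272). The call on TFE3 was lost without any 1 of the 4 CRISPR libraries (adjusted p from 0.0623 to 0.109), and under median scaling (0.0684) or quantile normalization (0.0837). TFEB made up 30.3% and 32.0% of the summed FPKM of both factors in knockout cells, and between 15.8% and 24.2% in the other 6 libraries. MITF and TFEC, the other members of the family, were not analysed here.

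**Figure D1:**
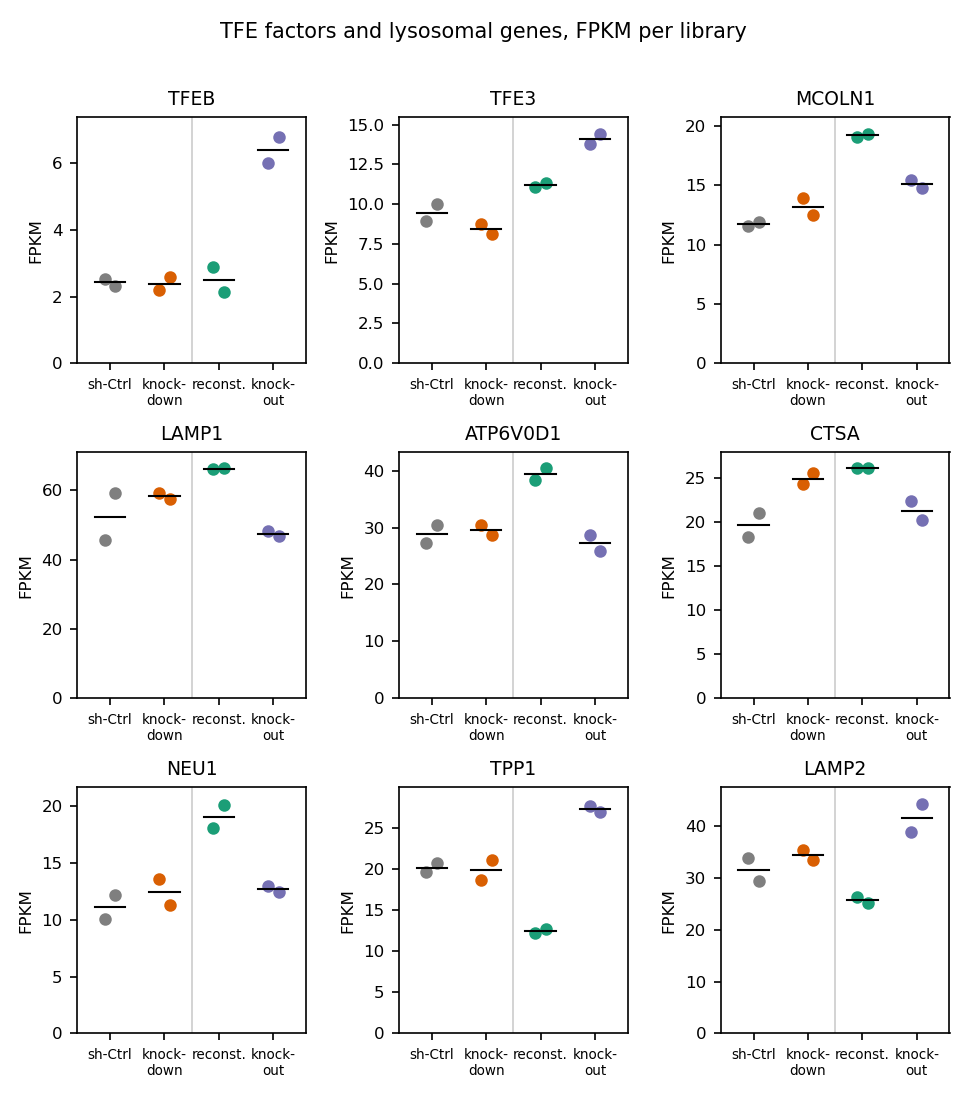
FPKM of 9 members in each library, with 1 point per library, a line at the mean of the 2 libraries and a vertical line between the shRNA and the CRISPR set. TFEB stands apart in the knockout libraries, at 6.0 and 6.79, while TPP1 is lowest in the reconstituted libraries, at 12.3 and 12.7, and MCOLN1, LAMP1, ATP6V0D1, CTSA and NEU1 are highest there.

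The lysosomal membrane proteins went both ways. Of 7 tested, 3 rose (42.9%, against 23.9% of all tested genes) and 2 fell (28.6%, against 25.9%) in knockout cells. In knockdown cells 1 rose (14.3%, against 3.62%) and 2 fell (28.6%, against 8.7%). LAMP2 (chromosome X, 119560003 to 119603220, minus strand), a major glycoprotein of the lysosomal membrane with an isoform that serves chaperone-mediated autophagy, had 38.9 and 44.2 FPKM in knockout and 26.3 and 25.1 in reconstituted cells. In sh-Ctrl it had 33.7 and 29.4 and in knockdown cells 35.5 and 33.4. The knockout libraries were the highest and the reconstituted the lowest of the 8, and the groups of the shRNA set overlapped. LAMP2 rose 1.62-fold in knockout cells (change 0.67, standard error 0.0947, limma adjusted p = 0.00268).

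LAMP1 (chromosome 13, 113951554 to 113977987, plus strand), the partner glycoprotein of the same membrane, went the other way. Its FPKM was 48.1 and 46.9 in knockout and 66.0 and 66.5 in reconstituted cells, and 45.7 and 59.2 in sh-Ctrl and 59.3 and 57.4 in knockdown cells. The CRISPR groups were apart, with a 1.39-fold fall in knockout cells (change -0.47, standard error 0.117, limma adjusted p = 0.0197). The groups of the shRNA set overlapped, and the sh-Ctrl libraries alone spanned 45.7 to 59.2. MCOLN1 (chromosome 19, 7587510 to 7598895, plus strand), the calcium channel of the lysosome also known as TRPML1, had 15.4 and 14.8 FPKM in knockout, 19.1 and 19.4 in reconstituted, 11.6 and 11.9 in sh-Ctrl and 13.9 and 12.5 in knockdown cells. It fell 1.27-fold in knockout cells (change -0.33, standard error 0.0668, limma adjusted p = 0.00977) and its change in knockdown cells was 0.16 (adjusted p = 0.187). The LAMP1 call was lost without any 1 of the 4 CRISPR libraries (adjusted p 0.0663 to 0.0929) and under quantile normalization (0.0643). The MCOLN1 call was lost without either reconstituted library or without knockout replicate 2 (0.0602 to 0.0698).

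SCARB2, the receptor that carries beta-glucocerebrosidase to the lysosome, passed the test in both sets and in opposite directions. It had 3.64 and 3.51 FPKM in knockdown cells and 4.99 in both sh-Ctrl libraries, against 5.44 and 5.59 in knockout and 4.19 and 3.96 in reconstituted cells. Within each set the groups were apart. It fell 1.4-fold in knockdown (change -0.39, standard error 0.0656, limma adjusted p = 0.0221) and rose 1.35-fold in knockout cells (change 0.36, adjusted p = 0.0065). Its fall in knockdown cells was lost without any 1 sh-Ctrl, reconstituted or knockout library (adjusted p 0.0583 to 0.0753), and its rise in knockout cells without reconstituted replicate 2 (0.0589) and under quantile normalization (0.0508).

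CD63, a tetraspanin of late endosomes and lysosomes, rose in both sets. It had 58.5 and 57.9 FPKM in knockdown and 49.0 and 49.6 in sh-Ctrl cells, and 62.3 and 62.6 in knockout and 50.3 and 49.9 in reconstituted cells. Both controls sat within 1 narrow range, below all 4 CBAP-deficient libraries. The change was 0.23 in knockdown (standard error 0.0405, limma adjusted p = 0.0235) and 0.31 in knockout cells (adjusted p = 0.00198). NPC1, which exports cholesterol from the lysosome, had 7.13 and 6.6 FPKM in knockdown and 8.78 and 8.68 in sh-Ctrl cells, a change of -0.31 (limma adjusted p = 0.0421). In the CRISPR set it had 9.51 and 9.48 in knockout and 10.05 and 10.9 in reconstituted cells, a change of -0.13 (adjusted p = 0.172). The NPC1 call in knockdown cells was lost under both scalings (0.0926 and 0.0972) and without any single library except knockdown replicate 1 (0.0567 to 0.115). The CD63 call in knockdown cells was lost without sh-Ctrl replicate 1 or any 1 CRISPR library (0.0600 to 0.0819). CLCN7, the chloride-proton exchanger of the lysosome, was listed at 0 in knockdown replicate 2 and had 22.6 FPKM in replicate 1. It had 20.4 and 25.6 in sh-Ctrl, 29.4 and 27.9 in reconstituted and 21.1 and 18.4 in knockout cells. With the listed 0 in the fit its standard error was 1.35, and no call was made in either set although the CRISPR groups did not overlap.

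Among 6 lysosomal proteases, 2 rose (33.3%, against 23.9% of all tested genes) and 1 fell (16.7%, against 25.9%) in knockout cells. In knockdown cells 1 rose (16.7%, against 3.62%) and 0 fell (against 8.7%). TPP1 (chromosome 11, 6633999 to 6640679, minus strand), the tripeptidyl peptidase whose loss causes a neuronal ceroid lipofuscinosis, had 27.8 and 27.0 FPKM in knockout and 12.3 and 12.7 in reconstituted cells. The shRNA set lay in between, with 19.6 and 20.8 in sh-Ctrl and 18.7 and 21.2 in knockdown cells. Reconstituted cells were thus below every library of the shRNA set and knockout cells above every one. The rise in knockout cells was 2.2-fold (change 1.08, standard error 0.0738, limma adjusted p = 0.000236), and the change in knockdown cells was -0.02 (adjusted p = 0.897).

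CTSB, a cysteine protease of the lysosome, rose by about the same amount in both sets. It had 21.0 and 19.7 FPKM in knockdown and 15.4 and 15.0 in sh-Ctrl cells, and 18.7 and 19.0 in knockout and 14.2 and 14.1 in reconstituted cells. All 4 CBAP-deficient libraries were above all 4 CBAP-expressing ones. The change was 0.40 in knockdown (standard error 0.0558, limma adjusted p = 0.0146) and 0.39 in knockout cells (adjusted p = 0.00271), 1.34-fold in each, and the difference between the changes was 0.01 (standard error 0.0789). The knockdown call was lost without either reconstituted library (0.0595 and 0.0597). CTSD, the main aspartic protease, had 73.4 and 58.9 FPKM in knockdown, 49.2 and 63.5 in sh-Ctrl, 70.0 and 68.0 in knockout and 67.1 and 61.6 in reconstituted cells. The shRNA groups overlapped, and neither change of CTSD passed the test (0.23, adjusted p = 0.361, and 0.10, adjusted p = 0.619). CTSC and CTSL2, the gene now called CTSV, were not called in either set, and their changes lay between -0.17 and 0.21.

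CTSA, the protective protein that holds beta-galactosidase and neuraminidase in a stable complex, and NEU1, that neuraminidase, both fell in knockout cells. NEU1 (chromosome 6, 31825436 to 31830682, minus strand) had 12.9 and 12.5 FPKM in knockout and 18 and 20.1 in reconstituted cells, and 10.02 and 12.2 in sh-Ctrl and 13.5 and 11.3 in knockdown cells. Reconstituted cells were the ones that stood apart, above the other 6 libraries. NEU1 fell 1.5-fold in knockout cells (change -0.55, standard error 0.124, limma adjusted p = 0.0143), and CTSA 1.23-fold (change -0.29, adjusted p = 0.0377). CTSA had 22.4 and 20.2 FPKM in knockout, 26.2 and 26.1 in reconstituted, 24.3 and 25.6 in knockdown and 18.3 and 21.1 in sh-Ctrl cells. The NEU1 call was lost without reconstituted replicate 2 or either knockout library (0.0517 to 0.0906). The CTSA call, the only fall among the proteases, was lost without any 1 of the 4 CRISPR libraries (0.0529 to 0.174).

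The other glycan-degrading enzymes did not follow NEU1. Of the 7 tested, 2 rose (28.6%, against 23.9% of all tested genes) and 1, NEU1, fell (14.3%, against 25.9%) in knockout cells. In knockdown cells 0 were called (against 3.62% higher and 8.7% lower). NAGLU, which trims heparan sulfate, had 3.67 and 2.86 FPKM in knockout, 1.70 and 1.54 in reconstituted, 2.04 and 2.57 in sh-Ctrl and 2.12 and 1.98 in knockdown cells. It rose 2.01-fold in knockout cells (change 0.70, standard error 0.131, limma adjusted p = 0.00754), at an adjusted p of 0.0526 without reconstituted replicate 2. HEXA, the alpha subunit of beta-hexosaminidase, rose 1.25-fold there (change 0.31, adjusted p = 0.0264), and the changes of GAA, GLA, GUSB and SGSH, which did not pass, lay between -0.07 and 0.32. The HEXA call was lost without any 1 of the 4 CRISPR libraries (0.0849 to 0.139) and under median scaling (0.0758), so that 0 of the 7 rose without reconstituted replicate 2. Of the lipid-handling pair, PSAP, the precursor of the saposins, had 180 and 182 FPKM in knockdown and 154 and 150 in sh-Ctrl cells, with a change of 0.25 (standard error 0.0405, limma adjusted p = 0.0204). It had 136 and 133 in knockout and 144 and 146 in reconstituted cells, a change of -0.11 (adjusted p = 0.073). The PSAP call in knockdown cells was lost without any 1 CRISPR library (0.0574 to 0.0753), and NPC2, the soluble partner of NPC1, was not called in either set.

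The called changes in the V1 sector were falls in both sets, except that quantile normalization added 1 rise in each. Of its 10 entries, 5 fell in knockout cells (50.0%, against 25.9% of all tested genes) and 0 rose (against 23.9%), and 9 of the 10 changes were below 0, with a median of -0.26. In knockdown cells 2 fell (20.0%, against 8.7%) and 0 rose (against 3.62%), and 6 of 10 were below 0. The count of 5 became 7 under median scaling and 8 with the CRISPR set fitted alone. The falls over all tested genes went from 2963 to 3608 and 3901 in these fits. The count shrank without either sh-Ctrl library, and most without any 1 CRISPR library, where fewer of all tested genes fell as well. The count of 2 in knockdown cells became 3 under either scaling, at a mean of at least 5 FPKM or without sh-Ctrl replicate 2, 4 with listed zeros left out, 5 without knockdown replicate 2, 1 without either knockout library, and 0 without either reconstituted library or with the shRNA set fitted alone. ATP6V1B2, the ATP-binding B subunit, had 37.4 and 42.1 FPKM in knockdown and 70.2 and 55.9 in sh-Ctrl cells, and 53.4 and 53.6 in knockout and 94.1 and 91.7 in reconstituted cells. The groups were apart in both sets, although knockout cells lay close to the lower sh-Ctrl library. It fell 1.59-fold in knockdown (change -0.65, standard error 0.115, limma adjusted p = 0.0253) and 1.74-fold in knockout cells (change -0.78, adjusted p = 0.00306).

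ATP6V1H, the regulatory H subunit, had 16.8 and 16.6 FPKM in knockdown and 23.9 and 22.5 in sh-Ctrl cells, and 19.8 and 21.0 in knockout and 28.9 and 28.4 in reconstituted cells. It was lower in both CBAP-deficient groups than in either control group. The fall was 1.39-fold in knockdown (change -0.45, standard error 0.0568, limma adjusted p = 0.0109) and 1.41-fold in knockout cells (change -0.47, adjusted p = 0.0015). ATP6V1A, the catalytic A subunit, had 8.68 and 11 FPKM in knockdown, 13.7 and 13.6 in sh-Ctrl, 13.5 and 13.9 in knockout and 17.1 and 17.0 in reconstituted cells. Its groups did not overlap either, and both changes came just short of the threshold (-0.44, limma adjusted p = 0.0503, and -0.30, adjusted p = 0.0609). The knockdown calls were lost without either reconstituted library for ATP6V1H (0.0515 and 0.0516), and for ATP6V1B2 without any 1 CRISPR library or knockdown replicate 1 (0.0544 to 0.0769).

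The other 3 V1 entries called in knockout cells, ATP6V1D, ATP6V1E1 and ATP6V1F, fell by 0.21 to 0.29. ATP6V1G1, which joins the peripheral stalk of the pump, was the only V1 entry above 0 in the CRISPR set, with a change of 0.15 (limma adjusted p = 0.324). The entry named ATP6V1G2,DDX39B cannot be assigned to either gene, and it was not called in either set. Summed over the other 9 entries, V1 came to 402 FPKM in both sh-Ctrl libraries, 336 and 390 in knockdown, 504 and 509 in reconstituted and 421 and 432 in knockout cells. The reconstituted libraries thus held the most V1 mRNA, and they also had the largest FPKM sums over all genes. They held the most V0 mRNA as well. Summed over 7 entries, V0 came to 540 and 545 FPKM in reconstituted and 497 and 510 in knockout cells. In the shRNA set it came to 412 and 486 in sh-Ctrl and 470 and 472 in knockdown cells.

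**Figure D2:**
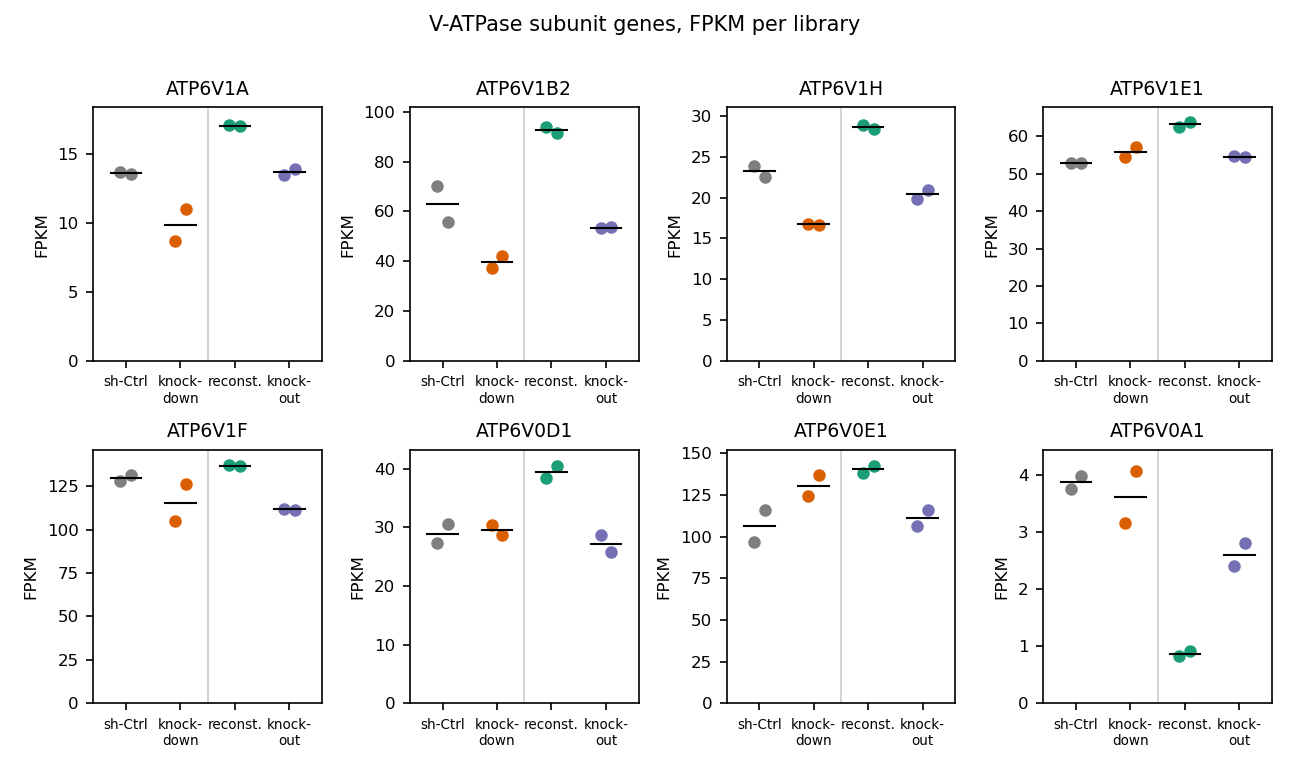
FPKM of 8 V-ATPase subunit genes in each library, with 1 point per library, a line at the mean of the 2 libraries and a vertical line between the sets. ATP6V1B2 and ATP6V1H are lower in the CBAP-deficient group of each set, ATP6V1A shows the same order without passing the test, and ATP6V0A1 is lowest in the reconstituted libraries, at 0.830 and 0.910.

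The V0 sector went both ways. In knockout cells 3 of 7 tested entries rose (42.9%, against 23.9% of all tested genes) and 2 fell (28.6%, against 25.9%). In knockdown cells 0 were called (against 3.62% higher and 8.7% lower), or 2 higher under quantile normalization, with 4 changes above 0 and 3 below. ATP6V0A1 (chromosome 17, 40610862 to 40674600, plus strand), 1 of the isoforms of the large membrane subunit, had 0.830 and 0.910 FPKM in reconstituted cells and 2.40 and 2.81 in knockout cells. It had 3.76 and 4.0 in sh-Ctrl and 3.16 and 4.07 in knockdown cells, so knockout cells lay below the whole shRNA set and reconstituted cells lower still. The rise in knockout cells was 2.99-fold (change 0.95, standard error 0.122, limma adjusted p = 0.00195), and the change in knockdown cells was -0.09 (adjusted p = 0.677). ATP6V0A2, the isoform of the same subunit found in the Golgi and endosomes, was the more abundant of the pair and rose 1.28-fold in knockout cells (change 0.33, adjusted p = 0.0214). The ATP6V0A2 call was lost without either reconstituted library or knockout replicate 2 (0.0740 to 0.125), where ATP6V0A1 was the only V0 entry still called higher. ATP6V0A1 made up 6.46% and 6.66% of the summed FPKM of both isoforms in reconstituted cells, 14.0% and 14.3% in knockout cells and 22.8% to 26.9% in the shRNA set. CD79A was likewise lowest in the reconstituted libraries.

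ATP6V0D1 (chromosome 16, 67471917 to 67515084, minus strand), the d subunit that couples V0 to the central stalk, had 28.6 and 25.8 FPKM in knockout and 38.4 and 40.4 in reconstituted cells, and 27.3 to 30.5 in the shRNA set. Again the reconstituted libraries were the high ones. The fall in knockout cells was 1.45-fold (change -0.52, standard error 0.0825, limma adjusted p = 0.00414), with a change of 0.04 in knockdown cells (adjusted p = 0.817).

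The small e subunit has a pair of genes, and they changed in opposite directions in knockout cells. ATP6V0E1 had 106 and 116 FPKM in knockout, 138 and 143 in reconstituted, 124 and 137 in knockdown and 96.6 and 116 in sh-Ctrl cells, with a change of -0.33 in the CRISPR set (limma adjusted p = 0.0401). ATP6V0E2 had 43.5 and 48.9 in knockout, 35.4 and 32.4 in reconstituted, 52.4 and 51.9 in knockdown and 37.4 and 44.4 in sh-Ctrl cells, with a change of 0.44 in the CRISPR set (adjusted p = 0.0164). In knockdown cells both lay above sh-Ctrl, without passing the test (0.30, adjusted p = 0.118, and 0.35, adjusted p = 0.0837). The call on ATP6V0E1 was lost under quantile normalization (change -0.11, adjusted p = 0.342) and without any 1 CRISPR library (0.0711 to 0.166), and that on ATP6V0E2 without either reconstituted library or knockout replicate 2 (0.0505 to 0.0979). ATP6V0E2-AS1 overlaps ATP6V0E2 on the opposite strand, and whether the fragments were counted by strand is not given in the sources used here, so reads of the pair may not be told apart. It was at 1.30 and 0.859 FPKM in knockout, 0.272 and 0.239 in reconstituted, 0.811 and 0.754 in knockdown and 0.610 and 0.892 in sh-Ctrl cells. The proton-carrying c subunit gene ATP6V0C, at 136 to 206 FPKM over the 8 libraries, and ATP6V0B were not called in either set. Of the 3 accessory entries 0 were called, and ATP6AP1 and ATP6AP2 had changes between 0.02 and 0.09, while ATP6AP1L varied within sh-Ctrl from 5.64 to 9.39 FPKM.

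The change differed between the sets for 16 members, a share (36.4%) near that of all tested genes (33.8%, limma interaction contrast). The sign was the same in both sets for 22 of the 44 (50.0%, against 56.7% of all tested genes), and Pearson's r across members, which share the 8 libraries and are not independent, was 0.22. In both sets 5 passed the test (11.4%, against 8.24% of all tested genes), and 4 of them in the same direction (9.09%, against 5.76%): ATP6V1B2 and ATP6V1H fell in both, CTSB and CD63 rose in both, and SCARB2 went in opposite directions. The 6 largest differences between the sets, knockdown minus knockout, were -1.10 for TFEB, -1.09 for TPP1, -1.03 for ATP6V0A1, -0.81 for NAGLU, -0.75 for SCARB2 and 0.70 for NEU1. Only 5 members differed when either reconstituted library was left out, namely TFEB, TPP1, ATP6V0A1, SCARB2 and PSAP, and 9 did without either knockout library. Since each set has its own control and its own way of removing CBAP, clone, method and degree of CBAP loss cannot be told apart as sources of these differences.

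RNA levels do not measure the phosphorylation or the location of TFEB, so its activity was not tested. Of the 6 members with TCACGTGA in the stretches above, 0 rose and 4 fell in knockout cells, namely MCOLN1, LAMP1, ATP6V0D1 and CTSA. The median change of the 6 was -0.31. For each of the 4 that fell, the reconstituted libraries were the highest of the 8. MCOLN1 in knockout cells, at 15.4 and 14.8 FPKM, still lay above the shRNA set, at 11.6 to 13.9. Any part of TFEB in these changes was not tested. Over all 203 tested genes that hold the word, 31.5% fell and 21.2% rose in knockout cells, with a median of -0.03. The changes of ATP6V1G1 and GAA, the other pair, were 0.15 (limma adjusted p = 0.324) and 0.00 (adjusted p = 1.0). In knockdown cells 0 of the 6 were called, and the median was 0.12. Over all tested genes that hold the word, 2.96% rose and 6.40% fell in knockdown cells. Of the 24 tested members whose promoter lacked the word, 8 rose (against 23.9% of all tested genes) and 4 fell (against 25.9%) in knockout cells. Their median was 0.08, and members with and without the word were not tested against each other. Quantile normalization gave 3 falls and 1 rise among the 6, and leaving out 1 CRISPR library left 1 or 2 falls.

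Further genes of the pathway that are not members also went both ways. Of 78 tested, 18 rose (23.1%, against 23.9% of all tested genes) and 26 fell (33.3%, against 25.9%) in knockout cells, and 3 rose (3.85%, against 3.62%) and 3 fell (3.85%, against 8.7%) in knockdown cells. Both counts in knockout cells shrank without any 1 CRISPR library, as did those over all tested genes. With the shRNA set fitted alone, 0 of the 78 were called in knockdown cells, where 58 of all tested genes rose and 17 fell. Among 12 genes of the Rag GTPases, Ragulator and folliculin, which recruit mTORC1 to the lysosome and regulate it there, 6 fell (50.0%, against 25.9% of all tested genes) and 1 rose (8.33%, against 23.9%) in knockout cells, and 2 fell in knockdown cells (16.7%, against 8.7%). RRAGA, which encodes a Rag GTPase, had 32.4 and 31.9 FPKM in knockdown and 48.5 and 48.7 in sh-Ctrl cells, and 35.8 and 35.1 in knockout and 50.6 and 49.7 in reconstituted cells. LAMTOR4, a Ragulator subunit, had 59.7 and 51.3 in knockdown, 71.2 and 70.6 in sh-Ctrl, 46.7 and 46.2 in knockout and 85.8 and 88.5 in reconstituted cells. Both were below their control in all 4 CBAP-deficient libraries, with changes of -0.58 (limma adjusted p = 0.00259) and -0.49 (adjusted p = 0.000535) for RRAGA and -0.35 (adjusted p = 0.0404) and -0.89 (adjusted p = 0.000477) for LAMTOR4. FLCN, the folliculin gene, fell by 0.83 in knockout cells (adjusted p = 0.00085). With the shRNA set fitted alone the knockdown changes did not pass (adjusted p = 0.113 for RRAGA and 0.240 for LAMTOR4), and that of LAMTOR4 was also lost under both scalings and without any single library outside the knockdown cells.

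Among 17 other lysosomal membrane proteins, 5 rose (29.4%, against 23.9% of all tested genes) and 5 fell (29.4%, against 25.9%) in knockout cells. In knockdown cells 2 rose (11.8%, against 3.62%) and 0 fell (against 8.7%). LAPTM5, a lysosomal protein of blood cells, had 208 and 221 FPKM in knockout, 90.9 and 91.4 in reconstituted, 182 and 179 in knockdown and 111 and 120 in sh-Ctrl cells. ABCA2, a lysosomal transporter, had 9.19 and 8.53, 3.19 and 3.27, 6.03 and 6.13, and 3.81 and 3.95 in the same order. Both were higher in CBAP-deficient cells of each set, with changes of 0.64 and 1.22 for LAPTM5 and 0.54 and 1.22 for ABCA2 (limma adjusted p at most 0.0108). With the shRNA set fitted alone the knockdown changes did not pass (0.115 for LAPTM5 and 0.177 for ABCA2), and that of ABCA2 was lost without either reconstituted library. Of 22 other hydrolases, 7 rose (31.8%, against 23.9%) and 5 fell (22.7%, against 25.9%) in knockout cells. The largest rises were those of SMPD1, the acid sphingomyelinase, with a change of 1.21 (limma adjusted p = 0.00149), and IDUA, which degrades glycosaminoglycans, with 0.88 (adjusted p = 0.000989). Of 8 other peptidases, among which TPP2 is in fact cytosolic, 3 rose (37.5%, against 23.9%) and 4 fell (50.0%, against 25.9%). LGMN, the largest fall, had 3.39 and 3.24 FPKM in knockout and 6.80 and 7.42 in reconstituted cells (change -0.91, limma adjusted p = 0.000655). It was at 11.7 to 13.4 in the shRNA set. CTSW, a cathepsin of cytotoxic lymphocytes and the largest rise, had 13.4 and 12.0 FPKM in knockout and 0.765 and 1.03 in reconstituted cells. CTSW was at 6.42 to 14.1 in the shRNA set, so only the reconstituted libraries stood apart. For ATP6V0A1 they were the lowest too, but there the knockout libraries also lay below the shRNA set. Of 10 genes listed for mannose-6-phosphate sorting, among which SUMF1 instead activates sulfatases, 3 fell (30.0%, against 25.9%) and 0 rose (against 23.9%). The falls were those of GNPTG, GGA2 and SUMF1. Of 9 tested genes linked to V-ATPase assembly or regulation, 2 rose (22.2%, against 23.9%) and 3 fell (33.3%, against 25.9%). The further subunit TCIRG1 was not tested. DMXL2 and DMXL1, whose proteins help to assemble the pump, rose by 0.96 and 0.75 (limma adjusted p = 0.00231 and 0.00349). TMEM199, CCDC115 and OXR1 fell, with changes of -0.52, -0.39 and -0.70 (limma adjusted p = 0.0168, 0.00261 and 0.00104).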

How the data were processed

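RNA-seq was analysed in 8 libraries of Jurkat-derived cells, 2 for each condition given by the labels. The authors mapped paired-end HiSeq reads on hg19 using TopHat 2 and estimated expression with cuffdiff, a module of Cufflinks, and the deposited table holds their FPKM values. The submitters' processing notes also name CASAVA 1.8 and Bowtie. The other versions, the annotation and the library scaling are not given in the sources used here. FPKM keeps no counts, so the depth is unknown and 2 libraries a condition limit the precision.

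From the FPKM, log2(FPKM + 1) was computed, which understates changes of low genes. The 11427 genes with a mean of at least 1 were fitted with limma 3.58.1 in R 4.3.3, with a mean per condition, all 8 libraries, a trend in the empirical Bayes step and Benjamini-Hochberg adjustment, and the code was tested on simulated data. Contrasts were knockdown minus sh-Ctrl, knockout minus reconstituted, and their difference. Fold values are ratios of mean FPKM. Tables and figures used Python 3.11.15, pandas 2.3.3 and matplotlib 3.10.9. Gene positions are on GRCh37 and promoters on GRCh38.p14.

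The members and lists were chosen with earlier results of these data known. Genes were described by library if they were TFEB, TFE3, MCOLN1, LAMP1, CTSD, ATP6V1A or TMEM102, among the 6 largest called rises or falls of a set, called in both sets, among the 6 largest called differences between the sets, or listed at 0 in a library. CTSA, GAA and ATP6V1G1 were added for their promoters, and other values are given where a count was small. Alternatives were another pseudocount, other filters, 2 scalings, no trend, each set alone, a replicate block, listed zeros left out and each library left out.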

Additional observations from a re-analysis of the deposited data

Results flagged for a closer look

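The change of 16 members differed between the sets in the interaction contrast of limma, at a Benjamini-Hochberg adjusted p under 0.05. Values are the change in knockdown minus the change in knockout cells, in log2(FPKM + 1). For 8 members the value was below 0: -1.10 for TFEB, -1.09 for TPP1, -1.03 for ATP6V0A1, -0.81 for NAGLU, -0.75 for SCARB2, -0.54 for LAMP2 and -0.45 for both GUSB and TFE3. For the other 8 it was above 0: 0.70 for NEU1, 0.64 for ATP6V0E1, 0.63 for LAMP1, 0.61 for CTSA, 0.55 for ATP6V0D1, 0.48 for MCOLN1, 0.36 for PSAP and 0.28 for ATP6V1E1.

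The difference of TPP1 passed the test in all 16 alternatives run, and those of ATP6V0A1 and SCARB2 in all 15 that kept them. TFEB kept it in 14 of 15 (highest adjusted p 0.0532) and PSAP in 15 of 16 (0.0628). GUSB, LAMP1, LAMP2, NEU1 and TFE3 kept it in 9 of 16, and 0 of the 16 members reversed in any alternative. GUSB, which degrades glucuronic acid residues, had 12.1 and 14.1 FPKM in knockdown, 15.8 and 15.3 in sh-Ctrl, 23.6 and 24.9 in knockout and 21.2 and 19.9 in reconstituted cells, so that it differed between the sets without a call within either of them.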

How the results depend on the processing

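No called change of a named member reversed in any alternative run. In knockout cells TFEB, TPP1, ATP6V0A1, ATP6V0D1, LAMP2, ATP6V1B2, ATP6V1H, CTSB and CD63 kept their call in each one that tested them, and of the 17 named calls 13 were kept under quantile normalization, 16 under median scaling and 9 to 17 with 1 library left out. Of the 7 named knockdown calls 0 were kept with the set fitted alone, under the replicate block or without either reconstituted library. Replicate numbers are shared by name only: deviations of same-numbered libraries correlated at 0.146 in the shRNA and 0.0239 in the CRISPR set. The replicate block gave 0 higher and 0 lower members in knockdown cells (6 and 7 at an unadjusted p under 0.05 in limma), 7 lower in knockout cells and 6 whose change differed between the sets. Over all tested genes the block called 49 higher and 22 lower in knockdown and 2466 lower in knockout cells. Of the 23 members called in knockout cells, the block lost 7: ATP6V0E2, ATP6V1D, CTSA, HEXA, LAMP1, NEU1 and TFE3 (adjusted p 0.0512 to 0.0690 in limma). With each set fitted alone the counts were 0 and 0 in knockdown cells and 18 lower in knockout cells, and quantile normalization gave 7 higher in knockdown cells. Over all tested genes, each set alone gave 58 higher and 17 lower in knockdown and 3901 lower in knockout cells. Quantile normalization gave 845 higher in knockdown cells. With each library left out in turn, 0 to 4 members were higher and 0 to 8 lower in knockdown cells, 6 to 14 higher and 3 to 15 lower in knockout cells, and 5 to 19 differed between the sets. The median change in knockdown cells was 0.0354 under median scaling, 0.0514 under quantile normalization and -0.0528 to 0.0492 with 1 library left out. In knockout cells it was -9.0e-05 without a filter and with listed zeros left out, -0.107 at a mean FPKM of at least 5, -0.102 under median scaling, 0.0550 under quantile normalization and -0.0463 to -0.0195 with 1 library left out. The median over all tested genes moved as well, to -0.0113 in knockdown and -0.0571 in knockout cells under median scaling. The causes of these shifts were not tested. Where a condition keeps 1 library, it is assumed to vary like the others. FPKM gives no depth, so no floor can be set for a listed 0.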
